A study of Mus musculus with 30 samples.

Results

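DNA methylation in mouse sperm was examined at genes of spermatogonial fate and meiotic entry: Sohlh1, Sohlh2, Zbtb16, Gfra1, Kit, Sall4, Id4, Stra8 and Dazl. They are 9 of the 34337 RefSeq genes on GRCm38 whose ends were placed. CpGs were taken within 2000 bp of either end of each gene body, with both strands summed and 10 or more reads in all 30 libraries. This gave 225 of the 416876 CpGs measured in every library, in 9 of 24905 gene-end windows, from 8 of the 9 genes.

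The assay was reduced representation bisulfite sequencing, in which CpG-rich fragments of genomic DNA are read, on sperm washed out of both cauda epididymides. Per the labels, 30 male C57BL/6J mice were bought at 7 weeks of age, housed singly and fed a diet with 10% of its energy from fat. In the cadmium group (15 mice) the reverse-osmosis drinking water held cadmium chloride at 0.9 ppm cadmium, an average of 0.68 mg per kg of body weight. The vehicle group (15 mice) had the same water without it. Sperm were taken after 9 weeks of treatment.

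Spermatogonia are the dividing germ cells of the testis, and they either renew themselves or become committed to meiosis. Zbtb16, Sall4 and Id4, transcriptional regulators, and Gfra1, the receptor for the niche factor GDNF, act in undifferentiated spermatogonia. Sohlh1 and Sohlh2, helix-loop-helix transcription factors, and Kit, the receptor for stem cell factor, act in differentiation, Stra8 is induced by retinoic acid before meiosis, and Dazl is an RNA-binding protein required for germ cell development. Promoters of several germline genes, Dazl among them, are known to be methylated in somatic tissues and unmethylated in germ cells, whereas promoters of many broadly used genes are CpG islands without methylation in most tissues.

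The promoters below are shown for their CpGs, though few or none of these were measured in every library except at Id4. They belong to the 3 genes of variable level (Dazl, Sohlh2 and Sohlh1) and to 2 that were nearly free of methylation (Kit and Id4). Each runs 5′ to 3′ from 250 bases before to 50 bases after the gene's start, is taken from RefSeq on GRCm38.p6, and has its CpGs in capitals. RefSeq entries matched 7 of the 9 genes, all but Zbtb16 and Sall4. Kit has overlapping entries, of which 1 is shown.
Dazl, chr17:50293571-50293870, minus strand: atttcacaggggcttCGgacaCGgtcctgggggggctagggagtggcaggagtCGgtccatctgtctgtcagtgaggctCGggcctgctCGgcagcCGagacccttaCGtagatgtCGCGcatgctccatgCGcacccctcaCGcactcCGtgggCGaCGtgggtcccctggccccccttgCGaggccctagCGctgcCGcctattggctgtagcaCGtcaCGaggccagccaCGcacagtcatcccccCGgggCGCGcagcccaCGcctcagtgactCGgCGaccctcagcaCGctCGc
Sohlh2, chr3:55181794-55182093, plus strand: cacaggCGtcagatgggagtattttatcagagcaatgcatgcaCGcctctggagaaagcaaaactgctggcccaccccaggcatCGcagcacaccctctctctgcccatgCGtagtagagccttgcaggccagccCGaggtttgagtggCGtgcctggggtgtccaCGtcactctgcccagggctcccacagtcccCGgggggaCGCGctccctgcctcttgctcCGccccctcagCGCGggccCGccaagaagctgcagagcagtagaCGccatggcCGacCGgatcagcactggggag
Sohlh1, chr2:25847199-25847498, minus strand: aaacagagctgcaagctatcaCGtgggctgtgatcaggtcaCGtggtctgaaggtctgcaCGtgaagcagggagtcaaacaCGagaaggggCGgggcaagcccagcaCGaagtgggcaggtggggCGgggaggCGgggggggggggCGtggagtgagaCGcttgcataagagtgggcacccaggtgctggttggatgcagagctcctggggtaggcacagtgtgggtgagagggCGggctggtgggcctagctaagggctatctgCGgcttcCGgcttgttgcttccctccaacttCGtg
Kit, chr5:75574737-75575036, plus strand: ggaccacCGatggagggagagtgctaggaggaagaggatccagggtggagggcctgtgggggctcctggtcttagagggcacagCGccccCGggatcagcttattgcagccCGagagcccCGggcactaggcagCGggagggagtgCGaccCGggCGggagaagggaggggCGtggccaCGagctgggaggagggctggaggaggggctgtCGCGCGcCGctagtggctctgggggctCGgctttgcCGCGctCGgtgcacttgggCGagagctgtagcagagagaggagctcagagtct
Id4, chr13:48260866-48261165, plus strand: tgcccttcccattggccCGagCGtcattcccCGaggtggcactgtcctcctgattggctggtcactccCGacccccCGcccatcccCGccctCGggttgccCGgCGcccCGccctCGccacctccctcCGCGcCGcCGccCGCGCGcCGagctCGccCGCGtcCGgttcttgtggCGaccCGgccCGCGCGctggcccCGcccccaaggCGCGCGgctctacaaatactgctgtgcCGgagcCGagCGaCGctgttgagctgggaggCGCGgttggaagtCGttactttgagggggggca

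Among these 300-base promoters, Id4 held 39 CpGs, Dazl 28, Kit 20, Sohlh2 17 and Sohlh1 14, while Gfra1 held 12 and Stra8 10. The median over 32851 promoters was 7. Of the promoter CpGs, 26 were measured in every library for Id4, 4 for Gfra1, 3 for Sohlh2, 2 for Kit and 1 for Sohlh1, and 0 for Dazl and Stra8. The 3 measured Sohlh2 promoter CpGs, at promoter positions 237, 239 and 245 counted from 1 at the 5′ end, averaged 30.1%, 32.8% and 33.9% methylation over the 30 mice. The 1 measured Sohlh1 promoter CpG, at position 297, averaged 26.2%. At Id4, the 26 CpGs averaged between 0% and 1.49%. The Dazl promoter was richer in CpGs than those of Kit and Gfra1, and the Dazl window was the more methylated one. Promoter and window cover unlike sequence: no Dazl promoter CpG was measured in every library, and the Gfra1 promoter entry lies inside the gene body. Whether CpG number goes with level was therefore not tested.

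Motifs were searched on both strands of the promoters. The E-box CACGTG, the kind of sequence that helix-loop-helix proteins bind, occurred 3 times in the Sohlh1 promoter, starting at positions 20, 40 and 59, and in 7.15% of all promoters. The CpGs of these E-boxes were not measured in every library. TCCCGC occurred 2 times in the Kit promoter, as its reverse complement, against 19.98% of promoters with any match. AGGTCA, a half-site letter run of nuclear receptors, occurred 2 times in the Stra8 promoter and 1 time in that of Sohlh1, against 16.3% of promoters, and in Sohlh1 it overlapped the E-box at position 40. CCGG, the cut site of MspI, was present in the promoters of all 7 genes but Stra8 and in 52.8% of all promoters.

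The total coverage of a library ran from 53591172 to 94090975 reads summed over cytosines. Mitochondrial DNA, chrM, took 0.0127% to 0.119% of coverage, with means of 0.0586% ± 0.0252 in cadmium and 0.0584% ± 0.0342 in vehicle mice (SD, n = 15 each, two-sided permutation test, p = 0.987). Levels at imprinted regions and mean levels over markers of other cell types were set against this share by r, with no test. Of the windows at maternal germline imprinted regions, which are unmethylated in sperm, only those averaging under 20% in these data were used. Their low level is therefore partly set by that choice. The mean of these 13 windows ran from 4.27% to 22.8% in cadmium and from 3.24% to 29.1% in vehicle mice. This mean had r = 0.744 with log2 chrM share over the 30 mice. The H19 control region, methylated in sperm, ran from 66.7% to 100% and from 62.6% to 100% over 2 CpGs, with r = -0.506. Of the epididymal epithelium list, 5 of 6 genes were measured, at 27.1% to 43.9% and 25.1% to 45.1%, with r = -0.720. This is the r of a mean over windows, and the low-coordinate end of Cdh1 alone had r = -0.101. Of the leukocyte list, 3 of 5 were measured, at 48.3% to 70.9% and 46.1% to 66.7%, with r = -0.384. The part of other cells' DNA in the results below was not tested. A level is a share of reads over pooled DNA, so a few fully methylated molecules and many partly methylated ones cannot be told apart.

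The 9 windows fell into 2 kinds. A window was called always unmethylated when it was under 5% in each of the 30 mice, and of variable level when the SD over the mice was 5 points or more. The 5 always-unmethylated windows belonged to Kit, Id4, Sall4, Zbtb16 and Gfra1, and the 4 variable windows to Dazl, Sohlh1 and both ends of Sohlh2. Over all 24905 windows, with both gene ends pooled, 40.7% were always unmethylated and 35.5% were variable. The measured windows of the 4 genes of the undifferentiated state were all always unmethylated, as was that of Kit. The other ends of these genes were not measured in every library. The plot of window levels shows both kinds side by side.

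**Figure D1:**
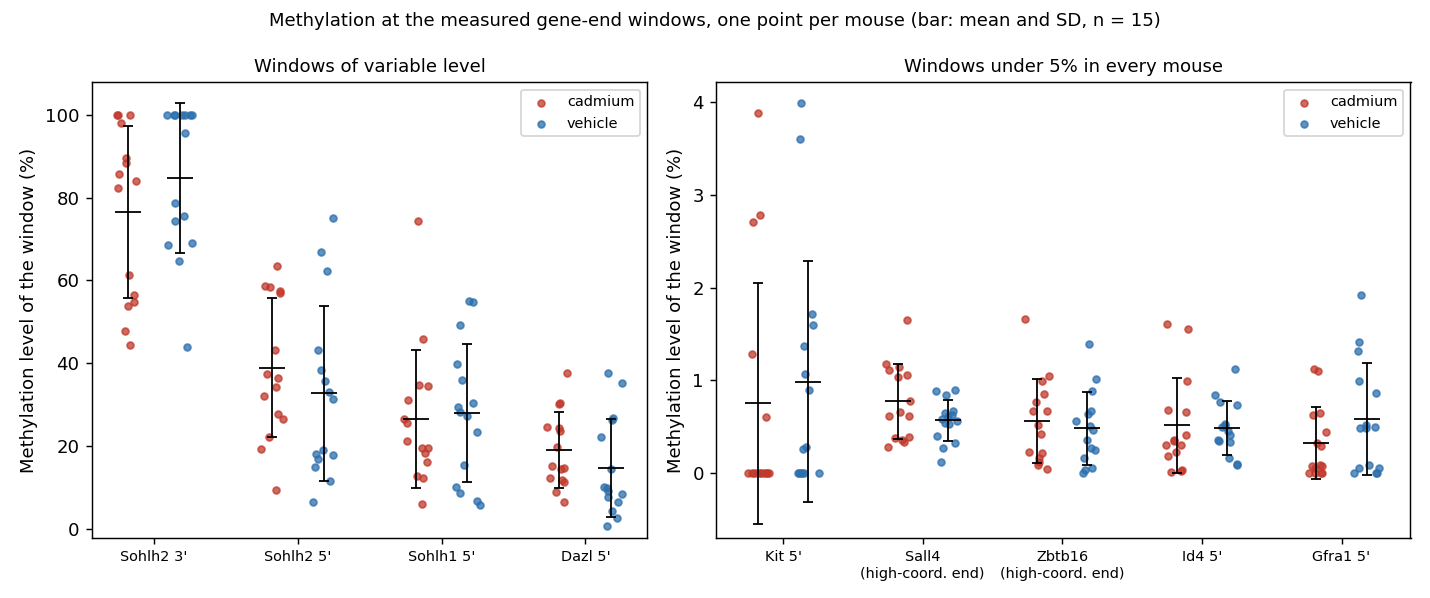
Methylation level (percent of reads) of each measured window, 1 point per mouse, with bars for mean and SD (n = 15 per group) and cadmium in red and vehicle in blue. In the left panel, the variable windows spread widely in both groups. In the right panel, on a scale to about 4%, no mouse reached 5%.

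Among the variable genes, Dazl had a 5′ window of 28 CpGs (chr17:50291620-50295620). It was covered by a median of 3082.5 reads per library, summed over its CpGs. The lowest, median and highest cadmium mouse had 6.41%, 15.1% and 37.6%, and the vehicle mice 0.777%, 9.88% and 37.6%. The groups overlapped over nearly the whole range. The means were 19.04% ± 9.07 in cadmium and 14.8% ± 11.8 in vehicle mice (SD, n = 15 each), a difference of 4.23 points with a 95% interval of -3.65 to 12.1.

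The Sohlh2 5′ window held 14 CpGs (chr3:55180044-55184044) and had the highest mean of the 5′ ends measured in all 30 libraries (the ends of Zbtb16 and Sall4 have no strand here). Cadmium mice ran from 9.50% over a median of 36.5% to 63.4%, and vehicle mice from 6.42% over 31.4% to 74.96%. The highest values lay in both groups. The means were 38.9% ± 16.8 and 32.7% ± 21.2, a difference of 6.20 points (95% interval -8.10 to 20.5).

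The Sohlh1 5′ window (chr2:25845248-25849248) rested on 2 CpGs with a median of 191.5 reads summed over both. Cadmium mice ran from 6.10% over 21.1% to 74.4%, and vehicle mice from 5.65% over 28.1% to 55.0%. One mouse, cadmium 11, stood at 74.4% above all others. The means were 26.6% ± 16.7 and 27.96% ± 16.8, a difference of -1.40 points (95% interval -13.9 to 11.1). The Sohlh2 3′ window (chr3:55207957-55211957) rested on 1 CpG, at -1784 bp (inside the gene, counted from its end), with a median of 47.5 reads, and was largely methylated, with means of 76.5% ± 20.8 and 84.7% ± 18.03, a difference of -8.25 points.

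Within mice, the order of the 3 variable 5′ ends was Sohlh2 above Sohlh1 above Dazl in 17 of 30 mice, Sohlh1 above Sohlh2 above Dazl in 8, Sohlh2 above Dazl above Sohlh1 in 4, and Sohlh1 above Dazl above Sohlh2 in 1. Dazl was lower than Sohlh2 in 29 mice and lower than Sohlh1 in 26. Sohlh2 was above Sohlh1 in 21 mice, so these neighbours were not ordered the same way in every mouse.

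Methylation at Dazl was not even along the window. CpGs were grouped where neighbours lay within 200 bp, a grouping chosen after the values were seen, so no test is given. The 7 CpGs before the start, at -618 to -493 bp, averaged 29.1% ± 15.04 in cadmium and 24.2% ± 21.6 in vehicle mice. Another 7, at 256 to 356 bp into the gene, averaged 32.9% ± 19.3 and 26.6% ± 22.5. The 14 CpGs at 662 to 754 bp into the gene were nearly unmethylated, at 0.271% ± 0.404 and 0.491% ± 0.462, and reached at most 1.34% in any mouse. At Sohlh2, 3 CpGs just before the start, at -14 to -6 bp, averaged 32.3% over all mice and 11 CpGs at 294 to 550 bp into the gene 36.5%. The plot along the genes shows the step within Dazl and its absence at Id4.

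**Figure D2:**
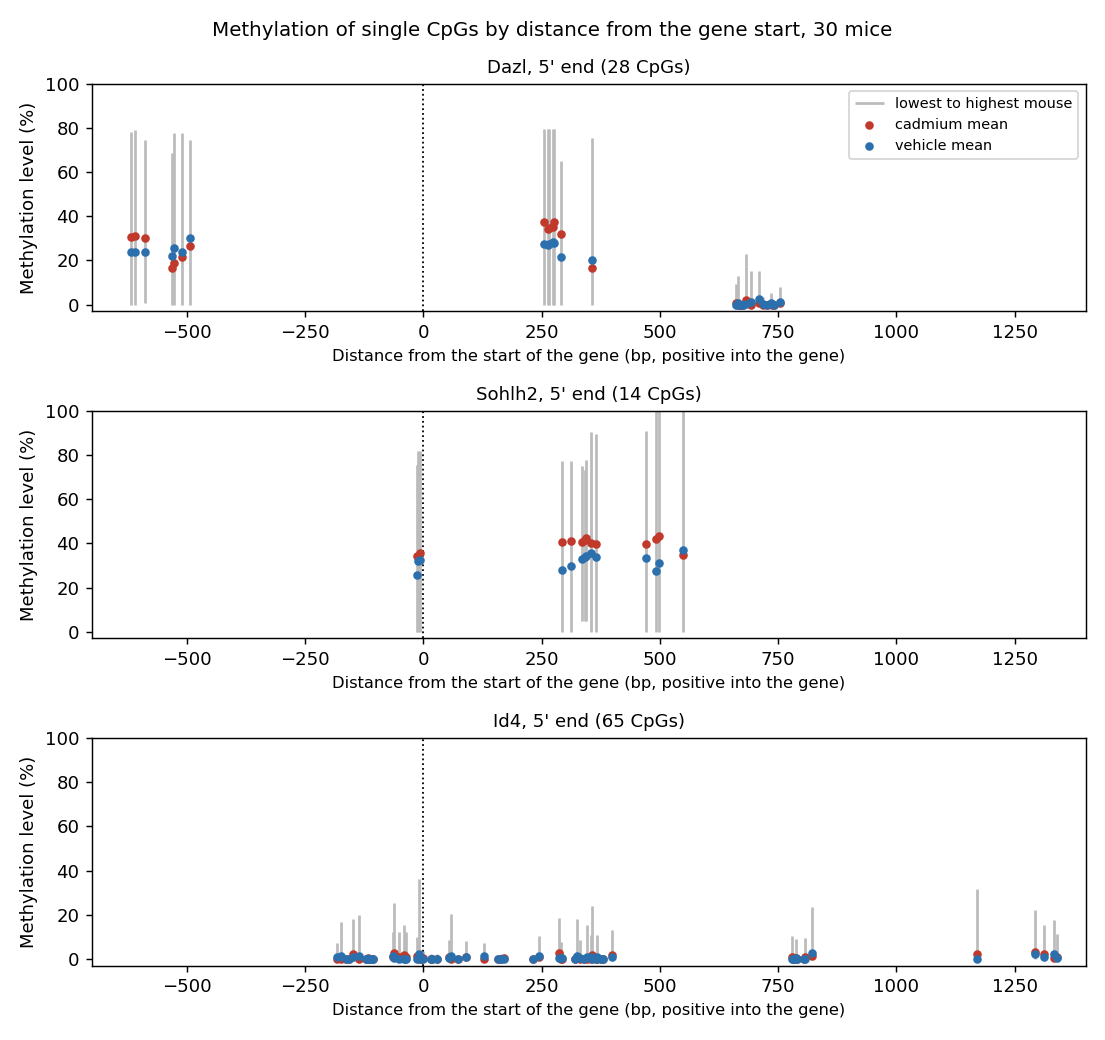
Methylation level (percent) of each measured CpG at the 5′ ends of Dazl, Sohlh2 and Id4 by distance from the start of the gene (bp, positive into the gene), with red and blue points for the cadmium and vehicle means and grey lines from the lowest to the highest mouse. Dazl carries methylation at both flanks of the start and nearly none from 662 bp, Sohlh2 carries it at each CpG, and Id4 stays low.

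Among the genes with an always-unmethylated window, Id4, an inhibitor of helix-loop-helix proteins, had 65 CpGs at its 5′ end (chr13:48259116-48263116). Its means were 0.512% ± 0.509 in cadmium and 0.482% ± 0.289 in vehicle mice, with all mice between 0.0150% and 1.61%. Sall4, at the high-coordinate end of its body (chr2:168765201-168769201, strand not given), had 48 CpGs and means of 0.771% ± 0.408 and 0.567% ± 0.221. Zbtb16, at its high-coordinate end (chr9:48834225-48838225), had 44 CpGs and means of 0.563% ± 0.455 and 0.483% ± 0.393. All 3 windows had groups that overlapped. The Id4, Sall4 and Gfra1 windows also lie at the ends of A330033J07Rik, Gm14261 and Gm41876.

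Gfra1 had 17 CpGs (chr19:58453946-58457946) and means of 0.322% ± 0.389 and 0.578% ± 0.604, with 7 mice at 0. Kit had 6 CpGs (chr5:75572987-75576987) and means of 0.751% ± 1.30 and 0.985% ± 1.30, with 16 mice at 0. In the shallowest Kit library, with 202 reads summed over 6 CpGs, a count of 0 allows a level of up to 1.49%. For Gfra1 it is up to 0.423%, at 710 reads summed over 17 CpGs. A read across several CpGs is counted at each of them, so the levels allowed are higher than these. These floors cover counting error only.

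Stra8 had no CpG with 10 reads in all 30 libraries. At its 5′ end 18 CpGs were seen, 15 had 10 reads in some library, and the best reached that depth in 24 libraries. With 10 reads in at least 10 libraries of each group, 4 CpGs gave 31.5% ± 35.8 in 10 cadmium mice and 47.0% ± 44.9 in 14 vehicle mice, with mice from 0% to 100%, so its level was not determined at this depth. Under the same rule 1 CpG at the low-coordinate end of Zbtb16 gave 95.2% ± 18.1 over 14 cadmium mice, and the 12 vehicle mice were each at 100%. Both ends of Stra8, the low-coordinate ends of Zbtb16 and Sall4 and the 3′ ends of Sohlh1, Gfra1, Kit, Id4 and Dazl were not measured in every library.

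The first comparison asked whether cadmium changed methylation at these genes. None of the 9 windows passed: adjusted p was 0.835 for Sall4 and from 0.993 to 1 for the other windows (logistic model, F test, Benjamini-Hochberg over 24905 windows), and 0 of the 9 had an unadjusted p under 0.05, also with limma. Over all windows 2 of 24905 passed, 0.00803%, and 1497 had an unadjusted p under 0.05. The median size of the difference was 0.204 points over the 5 always-unmethylated windows, against 0.152 over all such windows. It was 5.22 points over the 4 variable ones, against 2.56. These 4 had SDs of 10.6 to 19.6 points over the mice, where the class starts at 5. A larger SD alone gives larger differences, so the medians were not compared by a test. None of the 225 CpGs passed, against 7 of 416876, 0.00168%, and 33 had an unadjusted p under 0.05, 14.7% of them against 10.3% of all CpGs. With limma this order turned round: 2 of the 225 CpGs, 0.889%, had an unadjusted p under 0.05, against 1.74% of all CpGs. Without vehicle 12, 13 and 14, the libraries of highest chrM share, the differences were 7.88 points for Dazl, 11.8 for Sohlh2 5′, -14.7 for Sohlh2 3′ and 3.09 for Sohlh1. The adjusted p were 0.534, 0.684, 0.562 and 0.907 in the same order. The libraries left out were all from the vehicle group. With all libraries and log2 chrM share as a covariate in the logistic model, the differences were 3.27, 4.67, -7.36 and -2.56 points. Their adjusted p were 0.809, 0.986, 0.985 and 0.997.

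The 3 higher and 3 lower CpGs with the smallest p lay in the always-unmethylated windows. The higher CpGs were in Sall4, at -366 and -1225 bp (inside the gene), and in Kit, at -442 bp (before the start). Their levels were 1.93%, 0.831% and 0.712% in the cadmium group against 0% in each vehicle mouse, with adjusted p of 0.215, 0.355 and 0.347 from the logistic model. They rested on 3, 2 and 2 cadmium mice with any methylated read. The lower CpGs were in Zbtb16, at -56 bp (inside the gene), and in Gfra1, 393 and 885 bp from the end of the body, at 0%, 0.107% and 0% in cadmium and 1.21%, 1.09% and 1.52% in vehicle mice, with adjusted p of 0.223, 0.373 and 0.398. In the vehicle group 4, 6 and 2 mice had a methylated read there. With limma, adjusted p was 0.838 for each of these higher and lower CpGs.

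The second comparison set each window against the chrM share of coverage, in a model with treatment. Of the 9 windows, 4 rose with it (Dazl, Sohlh2 5′, Sohlh1 and Sall4) and 0 fell. Over the 23864 windows that could be fitted, 11.4% rose and 10.5% fell. Among variable windows 21.8% rose and 25.1% fell, and among always-unmethylated windows 2.45% rose and 0.65% fell. The classes differ in spread by definition, which affects what can be called, so they were not compared by a test. Dazl rose by 9.96 ± 1.25 points (SE) per doubling of chrM share (adjusted p = 1.32e-07 over all windows), Sohlh2 5′ by 15.9 ± 2.81 (adjusted p = 2.43e-05) and Sohlh1 by 12.03 ± 2.81 (adjusted p = 0.00171). Sall4 rose by 0.190 ± 0.0612 points, adjusted p = 0.0136, within a window that stayed under 2% in every mouse, and the call was lost with limma (adjusted p = 0.0676) and in vehicle mice alone, where the slope was 0.0738 (adjusted p = 0.399) against 0.351 in cadmium mice alone.

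The mice with the highest and lowest chrM share show the range. In vehicle 13, with a share of 0.119%, Dazl stood at 35.2%, Sohlh2 5′ at 66.7% and Sohlh1 at 55.0%. In vehicle 3, with 0.0128%, they stood at 2.66%, 6.42% and 8.62%. In cadmium 5, with 0.0127%, they stood at 6.41%, 32.0% and 16.2%. Id4 was at 0.0908%, 0.527% and 0.678% in the same 3 mice.

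Across the 30 mice, Dazl had r = 0.829 and rho = 0.886 with log2 chrM share (two-sided permutation p = 1e-05 for both, the smallest that 100000 resamples can give). In all, 27 such relations were computed, of 9 windows with 3 measures. Without cadmium 5 and vehicle 3, the mice farthest from the median, r was 0.849, and it was 0.785 within cadmium and 0.872 within vehicle mice. Sohlh2 5′ had r = 0.735 and rho = 0.806 (permutation p = 1e-05 for both), 0.783 without those mice, and 0.661 and 0.788 within the groups. Sohlh1 had r = 0.632 (permutation p = 0.00028) and rho = 0.680 (permutation p = 8e-05), 0.631 without them, and 0.594 and 0.676 within the groups. Sohlh2 3′ went the other way, with r = -0.421 (permutation p = 0.0207) and rho = -0.471 (permutation p = 0.0095), and its slope did not pass (adjusted p = 0.275). Sall4 had r = 0.504 (permutation p = 0.00493) and rho = 0.559 (permutation p = 0.00151), with 0.697 within cadmium and 0.319 within vehicle mice.

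**Figure D3:**
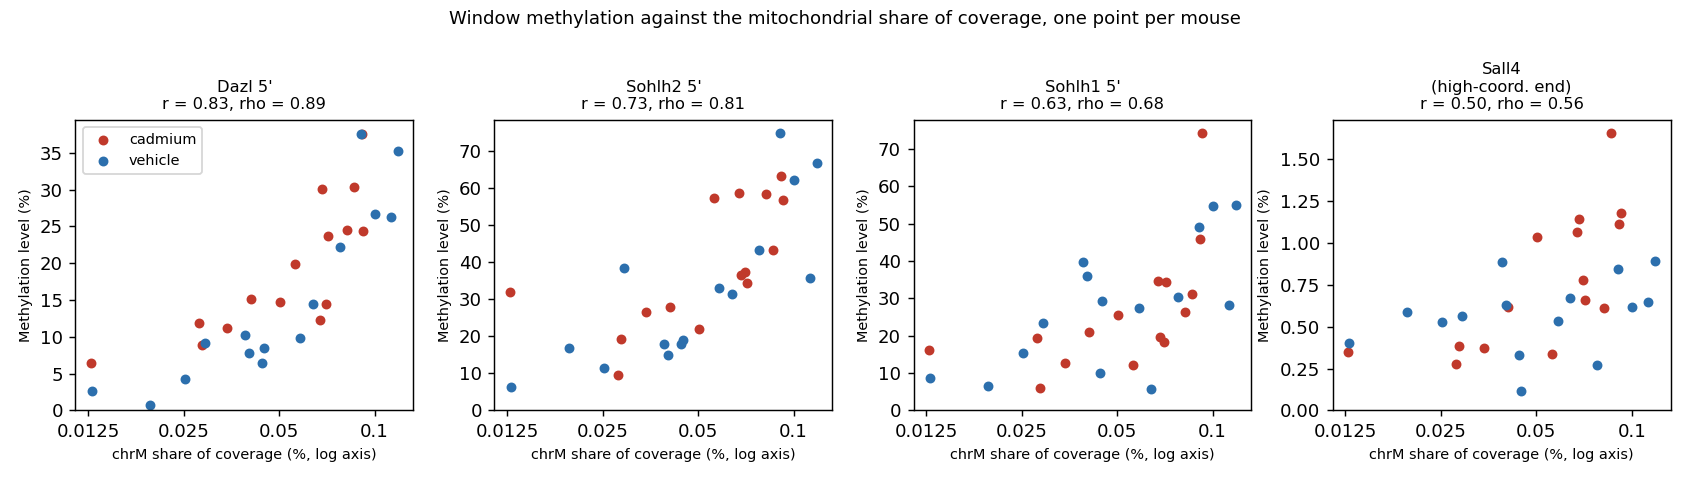
Methylation level (percent) of 4 windows against the chrM share of coverage (percent, log axis), 1 point per mouse, red for cadmium and blue for vehicle. The Dazl, Sohlh2 and Sohlh1 levels climb with the share in both groups, and the Sall4 window (scale to about 1.7%) rises less clearly.

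Id4, Zbtb16, Gfra1 and Kit showed no such slope, with adjusted p of 0.381, 0.553, 0.545 and 0.456. For Id4, r was -0.274 (permutation p = 0.142) and rho -0.482 (permutation p = 0.00769). Within Dazl, given as a description, r was 0.788 for the CpGs before the start and 0.739 for those at 256 to 356 bp. It was -0.157 for the 14 nearly unmethylated ones. These reached at most 1.34% in any mouse, so they had little spread that could follow the share. The maternal germline imprinted level gave r = 0.849 with Dazl, 0.817 with Sohlh2 5′ and 0.609 with Sohlh1 over the same mice. Total coverage gave r = 0.137, 0.217 and 0.344 for the same windows. Within cadmium mice these were 0.503, 0.624 and 0.517, and within vehicle mice 0.0921, 0.134 and 0.259. The part of total coverage in the levels was not tested. Whether treatment altered the slope was tested by an interaction, which 8 of 23864 windows passed and no window of the 9 did (adjusted p of 0.860 for Sall4 and 0.933 for Dazl).

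**Figure D4:**
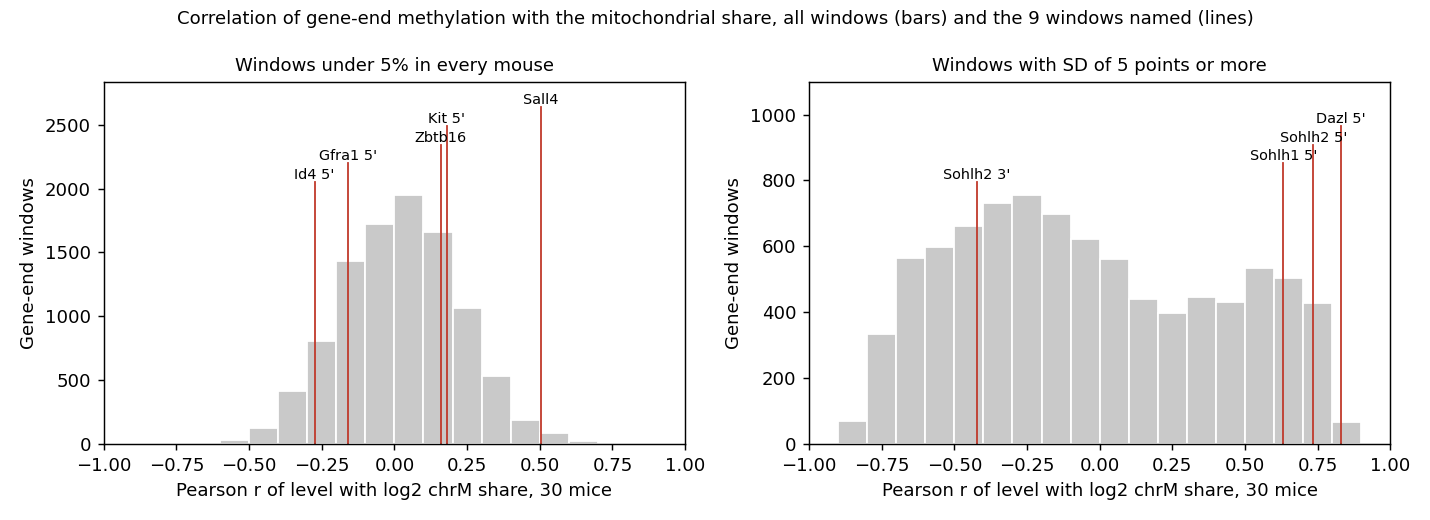
Number of gene-end windows by Pearson r of their level with log2 chrM share over 30 mice, for always-unmethylated (left) and variable (right) windows, with red lines at the windows of the 9 genes. Dazl, at 0.829, lies at the far right of the variable windows, and in the other group Gfra1 (-0.158), Zbtb16 (0.159) and Kit (0.180) lie among the tall bars, with Id4 (-0.274) toward the left and Sall4 (0.504) toward the right.

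Of the variable windows, 0.362% had an r with chrM share as high as Dazl's, 3.56% as high as that of Sohlh2 5′ and 9.62% as high as that of Sohlh1. By the slope in points per doubling the order differed: 12.7% of variable windows had a slope as high as Dazl's, 3.93% as high as that of Sohlh2 5′ and 9.39% as high as that of Sohlh1. The 3 variable 5′ windows also moved together over the mice, and the Sohlh2 3′ CpG moved against Dazl. Sohlh2 5′ and Dazl had r = 0.806 and rho = 0.808 (permutation p = 1e-05 for both, adjusted p = 5e-05 over 5 pairs), and r = 0.590 within cadmium and 0.927 within vehicle mice. Sohlh2 5′ and Sohlh1 had r = 0.634 (permutation p = 0.00017, adjusted 0.000425) and rho = 0.569 (permutation p = 0.00131, adjusted 0.00218). Sohlh1 and Dazl had r = 0.629 (permutation p = 0.00026, adjusted 0.000433) and rho = 0.604 (permutation p = 0.00072, adjusted 0.0018). Without the 2 mice farthest from the median, these r were 0.746, 0.581 and 0.566. Sohlh2 3′ had r = -0.412 (permutation p = 0.0243, adjusted 0.0304) and rho = -0.459 (permutation p = 0.0116, adjusted 0.0145) with Dazl, and r = -0.308 (permutation p = 0.0977) and rho = -0.227 (permutation p = 0.226) with Sohlh1, which did not pass. The 5′ windows followed the chrM share, so the pairs are not independent of it.

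Other windows were set against the mean level of the 4 variable ones, by Pearson r over 30 mice among 15440 candidates of 3 or more CpGs. The most alike were at Fut7 (r = 0.862), Fbrsl1 (0.859), Gm42007 (0.857), 4932702P03Rik (0.850) and Gm30528 (0.846). Their mean levels were 32.1%, 24.2%, 12.7%, 29.8% and 22.5%. The mean of the 4 pools the 5′ ends with Sohlh2 3′, which moved against Dazl (r = -0.412), so likeness to each of the 4 is not given.

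The other genes of spermatogonial renewal, retinoic acid signalling and meiosis were read from a list of 42, of which 33 were measured, in 43 windows. With cadmium, 0 of 43 windows passed, and 2 had an unadjusted p under 0.05, against 6.01% of all windows. Itga6, an integrin of the niche contact, averaged 1.42% ± 0.796 in cadmium and 0.642% ± 0.535 in vehicle mice (adjusted p = 0.628). Ccnd2, a cyclin of the cell cycle, averaged 1.09% ± 0.908 and 0.598% ± 0.547 at its high-coordinate end (adjusted p = 0.799), and Neurog3, a transcription factor of committed progenitors, 2.05% ± 1.94 and 0.913% ± 1.38 at its 5′ end (adjusted p = 0.915).

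With chrM share, 13 of the 43 windows rose and 2 fell, where 11.4% of all windows rose and 10.5% fell, with a median of 0.0772 points per doubling against -0.00326 over all windows. Ddx4, a germ cell RNA helicase, rose by 12.8 ± 1.90 points per doubling (adjusted p = 5.17e-06) at a mean level of 26.3%. Pax7, a transcription factor of a rare spermatogonial subset, rose by 1.24 ± 0.214 (adjusted p = 7e-06), and Boll, a relative of Dazl, by 3.73 ± 0.674 (adjusted p = 7.23e-06) at mean levels of 3.05% and 7.06%. The 2 windows that fell, at the 3′ end of Rara, a retinoic acid receptor, and the low-coordinate end of Bcl6b, a transcriptional repressor, were largely methylated, at 90.1% and 78.4%, and are named after their values were seen.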

How the data were processed

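The 30 sperm libraries were grouped by the labels' titles. Each deposited table lists single cytosines with a read count and a methylated fraction, as the authors made them. Tools named in the submitters' processing notes, with no role, are Bismark 0.22.3, methylKit 1.12.0, Trim Galore 0.5.0 and bcl2fastq. The builds named there are GRCm38 and its other name mm10. Fraction times count, rounded, gave the methylated reads. Nothing says that mice of a number share a cage or day. The p-values measure the spread between mice, except that the logistic model measures counting error of reads where its dispersion is held at 1.

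A CpG needed 10 reads, strands summed, in all 30 libraries. Windows ran 2000 bp either side of each end of RefSeq gene bodies on GRCm38, which give neither exons nor introns; in genes under 4000 bp a CpG went to the nearer end. Strand was read from the RefSeq promoter entries. Reads summed over a window, or over 1 CpG, were compared with an F test in a logistic model whose Pearson dispersion was held at 1 or more, with Benjamini-Hochberg adjustment over all windows or CpGs and a threshold of 0.05. The chrM model adds log2 chrM share; features with methylated or unmethylated reads in fewer than 5 mice were left out of it, a choice made after the data were seen. Correlations used 100000 permutations. Software was Python 3.11.15, numpy 2.4.6, scipy 1.17.1, pandas 2.3.3, R 4.3.3 and limma 3.58.1. The model was also run on simulated reads, with changes planted only in windows of intermediate level and low dispersion. That run does not measure power at the windows named here.

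Same-numbered mice of the 2 groups deviated together in 7 of 15 pairs by over 0.1 in correlation. The mean correlation was 0.153 for same-numbered and -0.00926 for other pairs. The labels do not pair the mice, so the numbers were not taken to pair them. Higher numbers tended to have a higher chrM share. Cadmium 2 to 5 had 0.0127% to 0.0341% and cadmium 11 to 15 0.0559% to 0.0923%. Vehicle 1 to 3 had 0.0128% to 0.0389% and vehicle 11 to 14 0.0776% to 0.119%, but vehicle 4 had 0.0906% and vehicle 15 0.0440%. The part of the numbering in the chrM relations was not tested. Among 210 pairs of libraries within a group, the lowest mean chi-square per CpG was 8.94. The genes and lists were chosen with earlier results of these data known. Named were all 9 genes, the 3 higher and 3 lower CpGs of smallest p, the 5 windows most alike, and 3 list windows of smallest p for each term. Some genes of the series are not reported here. The 95% intervals of differences cover the spread between mice. Coverage counts reads and not molecules, and window coverage counts a read once at each CpG it covers. The levels that a count of 0 allows cover counting error only.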

Additional observations from a re-analysis of the deposited data

How the results depend on the processing

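No window of the 9 genes and none of their 225 CpGs passed for treatment under any alternative that was run. Over all windows, the count that passed for treatment (2) became 4 with 5 reads, 1 with 1000 bp, 6 with log2 chrM share as a covariate, and 0 with 20 reads, 10 reads in 10 libraries of each group, 500 bp, 3 or more CpGs, limma, limma with the replicate block, limma on unweighted means, and without the 3 libraries of highest chrM share (vehicle 12, 13 and 14). Over all CpGs (7) it became 2 with 20 reads, 11 with 10 reads in 10 libraries of each group, 0 with limma and with the replicate block, and 177 with the chrM covariate. The replicate block was run for treatment only, not for the chrM term, and changed no other treatment call. For the chrM term over all windows (5217) the count was 8088 with the relaxed coverage rule, 3177 with 1000 bp, 1708 with 500 bp and 711 in cadmium libraries only. Of the 4 windows of the genes that passed, 2 passed in cadmium libraries only and 2 in vehicle libraries only; in cadmium mice alone adjusted p was 0.0769 for Sohlh2 5′ and 0.103 for Sohlh1, and in vehicle mice alone 0.0556 for Sohlh1. Dazl kept its call in all of them. Sall4 lost its call with 5 reads (adjusted p = 0.170), the relaxed rule (0.224), 1000 bp (0.121), 500 bp (0.0859), limma (0.0676) and vehicle mice only (0.399), the cause was not tested.

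Small treatment differences changed sign: Id4 to -0.0985 points with 20 reads, -0.00906 with 1000 bp, -0.0378 with 500 bp and -0.0470 without the 3 libraries; Zbtb16 to -0.0880 with 20 reads and -0.0923 with 500 bp; Kit to 0.317 with the relaxed rule; Sohlh1 to 3.09 without the 3 libraries. Slopes changed sign at Gfra1, to 0.0696 with 500 bp and 0.0621 in cadmium mice only, and at Zbtb16, to -0.0156 in vehicle mice only. The cause was not tested. With the maternal germline level in place of chrM share, an alternative chosen after seeing the data, Dazl (adjusted p = 1.22e-06), Sohlh2 5′ (2.78e-06), Sohlh1 (0.00712) and Sall4 (0.0348) kept their calls. The Sohlh2 3′ window rests on 1 CpG with a median of 47.5 reads. Its difference moved from -8.25 to -14.7 points without the 3 libraries, and to -7.36 with log2 chrM share as a covariate.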
